A study of Mus musculus with 15 samples.

Results

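Mouse liver RNA of 5 genes of zinc and manganese handling is described here: the metallothionein genes Mt1 and Mt2, the exporter genes Slc30a1 and Slc30a10, and the importer gene Slc39a14. The members were chosen by symbol, with the read counts of all 5 groups of the study known, so their levels and differences are given as a description, without a test. All 5 were found among the 16809 genes of the deposited table, and all 5 were among the 12658 genes left after removal of low counts. Mt2 was close to that limit, with 2 to 9 reads in each library of the model group. The study sequenced liver RNA of wild-type mice in 15 libraries, 3 in each of 5 groups, over 6 weeks of feeding. Control mice ate standard feed. The model mice ate a high-fat diet made of 78.8% standard feed, 1% cholesterol, 0.2% sodium cholate, and lard and egg yolk powder at 10% each. Mice of the flavonol groups were on a high-fat diet whose recipe the labels do not repeat and which was assumed to be the model's. They received by oral gavage, per kg of body weight and day, 200 mg of quercetin, 75 mg of myricetin or 100 mg of kaempferol. These plant flavonols share 1 ring skeleton and differ in the number of hydroxyl groups on the B ring, fewest in kaempferol and most in myricetin. Strain, sex, age, hour of collection, fasting, dietary zinc and vehicle gavage of the control and model mice are not given in the labels. Libraries are named by group and title number.

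Metallothioneins are small cytosolic proteins rich in cysteine that bind zinc, copper and cadmium. In liver their genes are induced by metals through the zinc-sensing factor MTF1, by glucocorticoids, by interleukin-6 through STAT3 and by oxidative stress. ZnT proteins, encoded by Slc30 genes, move metal out of the cytosol, and ZIP proteins, encoded by Slc39 genes, move it in. Slc30a1 encodes the plasma membrane zinc exporter ZnT1 and is a target of MTF1. Slc30a10 encodes a manganese exporter, and Slc39a14 encodes ZIP14, a liver importer of zinc, iron and manganese known to be induced in the acute phase response.

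Mt2 and Mt1 lie side by side on the + strand of chromosome 8 of GRCm38.p6, Mt2 from 94172618 to 94173567 and Mt1 from 94178883 to 94180327, with 5315 bases between them. Slc30a10 spans chromosome 1 from 185454848 to 185468762 on the + strand, and Slc39a14 spans chromosome 14 from 70303467 to 70351452 on the − strand. The RefSeq table places Slc30a1 on chromosome 1 from 191906697 to 191913248, while the deposited row names an unplaced scaffold for it with an end coordinate from chromosome 1. Its values may therefore pool reads assigned to 2 annotated copies of the gene, which was not tested. Mt1 and Mt2 are related in sequence, but the longest identical stretch between their transcripts, 1085 and 511 bases long, was 20 bases.

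The promoters are shown because the metallothionein genes and Slc30a1 are known targets of MTF1, which binds metal response elements. Each RefSeq window holds 300 bases on the + strand of GRCm38.p6, from 250 bases before the annotated start: chr8:94178839-94179138 for Mt1, chr8:94172368-94172667 for Mt2, chr1:191906531-191906830 for Slc30a1 and chr1:185454598-185454897 for Slc30a10. The Mt1 and Slc30a1 windows overlap the gene spans, whose outermost transcripts begin upstream of the starts used in that table, and match positions are counted from those starts. RefSeq windows were matched for 4 of the 5 genes, all but Slc39a14. Capitals mark matches to the metal response element core, TGCACNC or TGCGCNC on either strand.
Mt1: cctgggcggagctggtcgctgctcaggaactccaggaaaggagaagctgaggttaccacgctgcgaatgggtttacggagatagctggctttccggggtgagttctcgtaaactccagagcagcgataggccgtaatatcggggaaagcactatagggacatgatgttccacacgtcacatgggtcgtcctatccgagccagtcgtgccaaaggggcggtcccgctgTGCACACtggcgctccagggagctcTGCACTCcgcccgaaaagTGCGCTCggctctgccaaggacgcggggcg
Mt2: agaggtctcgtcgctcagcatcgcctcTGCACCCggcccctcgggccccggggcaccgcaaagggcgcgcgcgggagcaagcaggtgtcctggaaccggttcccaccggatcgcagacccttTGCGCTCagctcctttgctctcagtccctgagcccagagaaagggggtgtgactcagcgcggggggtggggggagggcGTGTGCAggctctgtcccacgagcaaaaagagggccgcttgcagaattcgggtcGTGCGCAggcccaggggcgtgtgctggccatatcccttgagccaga
Slc30a1: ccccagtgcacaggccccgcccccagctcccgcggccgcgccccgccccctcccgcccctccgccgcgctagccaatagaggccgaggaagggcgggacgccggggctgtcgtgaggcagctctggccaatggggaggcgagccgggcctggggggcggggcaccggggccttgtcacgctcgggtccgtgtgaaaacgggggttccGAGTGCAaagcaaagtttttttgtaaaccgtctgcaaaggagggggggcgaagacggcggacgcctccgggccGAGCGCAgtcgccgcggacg
Slc30a10: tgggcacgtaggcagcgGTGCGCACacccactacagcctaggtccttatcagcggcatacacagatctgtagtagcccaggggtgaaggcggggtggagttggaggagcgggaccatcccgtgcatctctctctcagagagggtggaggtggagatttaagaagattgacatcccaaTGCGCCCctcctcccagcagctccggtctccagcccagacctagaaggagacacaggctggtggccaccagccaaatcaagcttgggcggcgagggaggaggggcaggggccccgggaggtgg

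Mt1 held 3 matches, beginning at positions -23, 2 and 20 relative to the annotated start at 0. Mt2 held 4 matches, beginning at -223, -128, -50 and 4. Slc30a1 held 2 matches, at -43 and 30. Slc30a10 held 3, of which those at -233 and -232 overlap as 1 palindrome read on both strands and the other begins at -73. Of 32851 promoter windows of the same length, 25.7% held at least 1 match, 7.11% at least 2, 1.97% at least 3 and 0.517% at least 4. The antioxidant element TGACNNNGC, bound by NRF2, had 1 match in Mt2 at -79 and 1 in Slc30a1 at -82, against 12.4% of all windows. No match in these 4 windows was found for the STAT element TTCNNNGAA (8.3% of all windows), the E-box CACGTG bound by CLOCK and BMAL1 (7.15%) or a full glucocorticoid element, AGAACA and TGTTC with 3 bases between (0.0487%). Both strands were searched for every motif, and a match is a description of letters, not of binding. Bases outside the windows were not searched. A missing match, as of the antioxidant element in Mt1, thus holds only for the window and the start used.

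**Figure D1:**
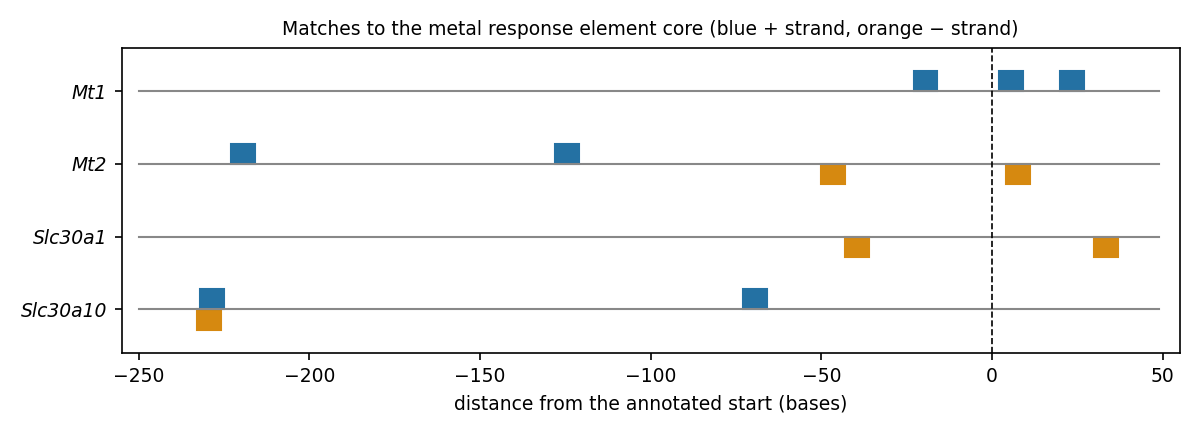
Matches to the metal response element core in the 4 promoter windows, by distance in bases from the annotated start (dashed line). Boxes above each line are matches on the + strand and boxes below it on the − strand, and Mt2 holds 4 of them.

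Library depth was similar, at a mean ± SD (n = 3), in units of 1000000 estimated reads, of 16.4 ± 0.35 in control and 17.1 ± 0.266 in kaempferol livers and a full range of 15.9 to 17.6, with 14615 to 14929 genes detected per library. CPM, the count of a gene per 1000000 reads, were scaled between libraries with TMM factors. TPM, the corresponding measure for transcripts, also divide by gene length and served to compare genes. Whether libraries are separate mice is not in the labels, so every SD, SE and p measures spread between libraries, which may be technical. Defining hepatocyte markers were abundant, the 9 measured ones summing to 102692 to 117370 CPM in control, 78168 to 96115 in model, 92746 to 106306 in quercetin, 73061 to 87799 in myricetin and 69546 to 95262 CPM in kaempferol libraries. In whole liver, a change in the number of cells of a type and a change in RNA per cell cannot be told apart.

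Mt1 RNA was lowest in the model group and highest in the quercetin group. The control libraries 1, 2 and 3 held 7.23, 11.1 and 2.80 CPM, and the model libraries 1, 2 and 5 held 1.90, 1.28 and 0.856 CPM. Quercetin libraries 2, 5 and 8 held 48.4, 39.1 and 7.57 CPM, myricetin libraries 5, 7 and 8 held 10.9, 4.76 and 11.8 CPM, and kaempferol libraries 3, 5 and 8 held 23.9, 6.49 and 2.61 CPM. Every model library thus lay below every library of the other 4 groups. Group means ± SD (n = 3) were 7.05 ± 4.18 in control, 1.34 ± 0.524 in model, 31.7 ± 21.4 in quercetin, 9.16 ± 3.83 in myricetin and 11.004 ± 11.3 CPM in kaempferol livers. In the order quercetin, kaempferol, myricetin, control and model, all neighbours overlapped in range except control and model.

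Mt2 RNA followed the same order at lower levels. Its control libraries held 2.92, 2.00 and 0.808 CPM and its model libraries 0.551, 0.116 and 0.198 CPM, the last 2 of which rest on 2 and 3 reads. The quercetin libraries held 16.8, 14.6 and 3.02 CPM, the myricetin libraries 2.97, 1.03 and 3.10 CPM, and the kaempferol libraries 11.1, 3.18 and 0.511 CPM. Kaempferol library 8 thus fell within the model range, while all control, quercetin and myricetin libraries lay above it. Means ± SD (n = 3) were 1.91 ± 1.06 in control, 0.288 ± 0.231 in model, 11.5 ± 7.42 in quercetin, 2.37 ± 1.16 in myricetin and 4.94 ± 5.52 CPM in kaempferol livers.

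**Figure D2:**
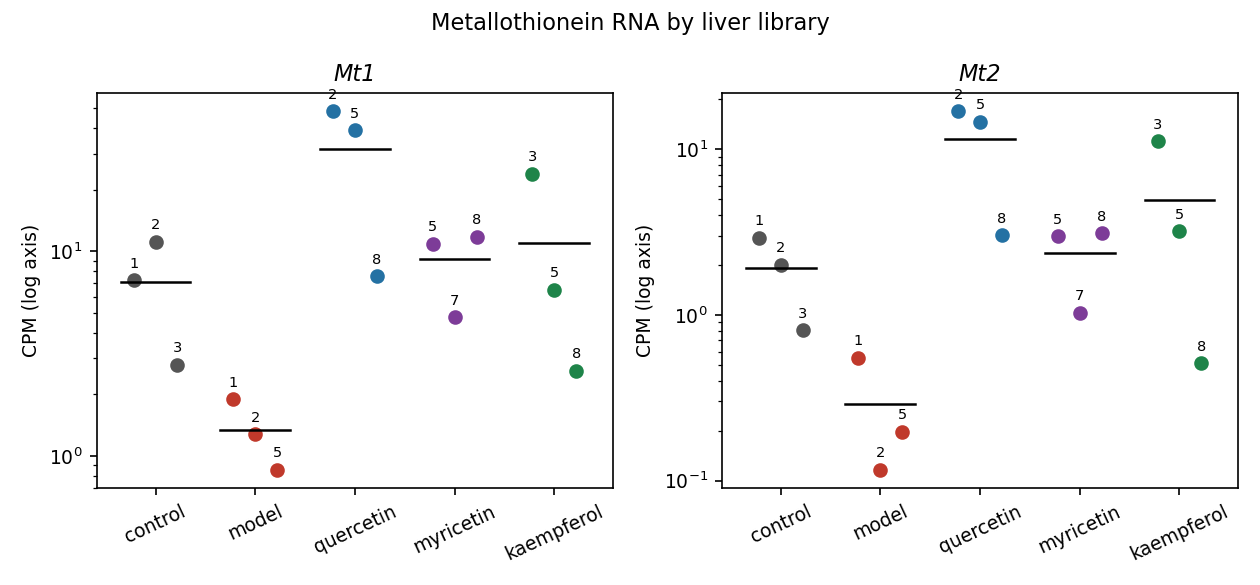
CPM of Mt1 and Mt2 in each library on log axes, with title numbers beside the points and a bar at each group mean. The 3 model libraries are the lowest for Mt1, and single libraries stand apart within the quercetin and kaempferol groups.

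The libraries of 1 group differed widely in metallothionein RNA. In the kaempferol group the highest library held 9.16 times the Mt1 level and 21.8 times the Mt2 level of the lowest, and the coefficients of variation were 103% and 112%. In the quercetin group library 8 was far below the others, with ratios of highest to lowest of 6.39 for Mt1 and 5.58 for Mt2. The model, control and myricetin groups spanned 2.22, 3.99 and 2.47 times for Mt1. For the 3 transporters no group spanned more than 1.26 times.

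The neighbours Mt1 and Mt2 varied together. Over the 15 libraries log2 CPM of the genes had a Pearson r of 0.974 and a Spearman rho of 0.914, and r was 0.936 after group means were subtracted. These points share library depth and scaling, and no p is given. The TPM ratio of Mt1 to Mt2 had a median of 3.63 in control, 2.79 in quercetin (2.62 to 2.94), 3.98 in myricetin and 2.25 in kaempferol livers. In the model group it was 4.54, with 1 value of 11.3 that rests on 2 Mt2 reads. Kaempferol library 8, the lowest of its group for both genes, had a ratio of 5.22 beside 2.25 and 2.12 in the others.

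Slc30a1, the zinc exporter gene and MTF1 target, was highest in control liver. Its control libraries held 54.2, 61.8 and 55.3 CPM and the model libraries 36.4, 45.7 and 37.1 CPM. The quercetin libraries held 43.6, 41.1 and 40.1 CPM, the myricetin libraries 40.9, 45.8 and 37.8 CPM, and the kaempferol libraries 34.3, 34.3 and 34.5 CPM. All 3 control libraries lay above all 12 high-fat libraries, the quercetin and myricetin ranges overlapped the model range, and the kaempferol libraries lay just below it. Group means ± SD (n = 3) were 57.1 ± 4.10 in control, 39.7 ± 5.18 in model, 41.6 ± 1.80 in quercetin, 41.5 ± 4.02 in myricetin and 34.3 ± 0.107 CPM in kaempferol livers.

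Slc30a10, the manganese exporter gene, was highest in control and lowest in quercetin liver. The control libraries held 86.8, 83.9 and 103 CPM, the model libraries 63.1, 70.8 and 61.7 CPM, and the quercetin libraries 30.0, 25.0 and 30.0 CPM. The myricetin libraries held 65.4, 52.3 and 51.8 CPM and the kaempferol libraries 60.1, 54.6 and 62.3 CPM, both overlapping the model range. Quercetin libraries thus stood apart from all others on the low side and control libraries on the high side. Means ± SD (n = 3) were 91.4 ± 10.5, 65.2 ± 4.92, 28.4 ± 2.89, 56.5 ± 7.70 and 59.0 ± 3.98 CPM in control, model, quercetin, myricetin and kaempferol livers.

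Slc39a14, the importer gene, was lowest in model liver and alike in control and quercetin liver. The control libraries held 209, 200.0 and 185 CPM, the model libraries 129, 129 and 113 CPM, and the quercetin libraries 211, 210.4 and 169 CPM. The myricetin libraries held 141, 135 and 159 CPM and the kaempferol libraries 164, 141 and 146 CPM. Control and quercetin ranges overlapped, myricetin and kaempferol ranges overlapped each other, and all 12 of these libraries lay above the 3 model libraries. Means ± SD (n = 3) were 198 ± 12.1, 124 ± 9.55, 197 ± 23.9, 145 ± 12.5 and 150.4 ± 12.3 CPM in control, model, quercetin, myricetin and kaempferol livers.

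**Figure D3:**
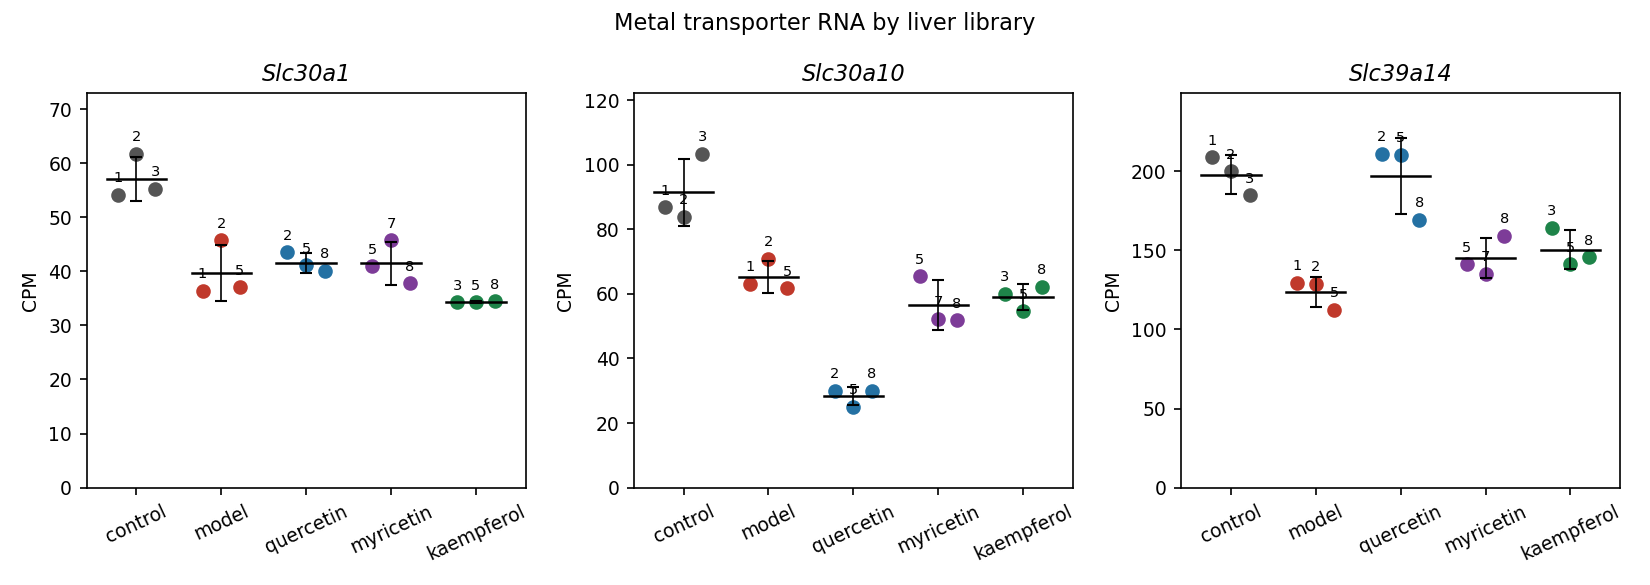
CPM of the 3 transporter genes in each library, with title numbers beside the points and bars for the group mean ± SD (n = 3). Control livers are highest for Slc30a1 and Slc30a10, quercetin livers are lowest for Slc30a10, and model livers are lowest for Slc39a14.

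By group mean per length, the transporter genes exceeded the metallothionein genes in model liver, and Mt1 led in quercetin liver. Mean TPM in model liver was 5.52 for Mt1, 1.13 for Mt2, 9.29 for Slc30a1, 13.7 for Slc30a10 and 29.6 for Slc39a14. In quercetin liver it was 154.9, 54.2, 11.2, 6.78 and 56.0 TPM for the same genes. By mean TPM among all genes, Mt1 ranked 6624 in model liver, 752 in quercetin, 1638 in kaempferol, 1969 in myricetin and 2364 in control liver. Single libraries differed from these means. Quercetin libraries 2, 5 and 8 held 241, 194 and 29.4 TPM of Mt1, and library 8 held more Slc39a14, at 40.9 TPM. Kaempferol libraries 3, 5 and 8 held 108, 24.0 and 11.9 TPM of Mt1. Among the 25 zinc transporter genes, Slc39a14 had the fourth highest median over the 15 libraries at 38.8 TPM. It stood below Slc39a7 (59.1 TPM), Slc39a4 (47.3 TPM) and Slc39a1 (41.5 TPM), which are named here for their level alone.

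The first comparison sets the high-fat diet without a flavonol against standard feed. All 5 genes were lower in the model than in the control group, with ranges apart, while 14.9% of all genes tested lay apart on the lower side and 15.1% on the higher side. The log2 fold change ± SE was -2.37 ± 1.07 for Mt1, -2.69 ± 1.38 for Mt2, -0.52 ± 0.10 for Slc30a1, -0.49 ± 0.12 for Slc30a10 and -0.68 ± 0.11 for Slc39a14. The metallothionein differences were the larger ones and the less precise ones. The summed hepatocyte markers were also lower in model than in control libraries, with ranges apart, and by edgeR 1 of the 9 fell and none rose, at a median log2 fold change of -0.05. Of 10 endothelial markers 4 rose by edgeR, at a median of 0.77, with sums of 149 to 213 CPM in control and 235 to 303 CPM in model libraries and none at 0 in every library. The 12 Kupffer cell and macrophage markers had a median of 0.87 and 3 rose by edgeR. Of 4 adipocyte markers tested 2 rose, and of 6 B cell markers none passed by edgeR, at a median of 1.35, with 4 at an unadjusted p under 0.05 and 1 called by DESeq2. Of 7 T and NK cell markers 1 rose and of 2 pancreatic acinar markers 1 fell by edgeR. The part of these cells in the member values was not tested. Without model library 1, which held 9 of the 14 Mt2 reads of its group, the Mt2 difference was -3.56.

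The flavonol comparisons ask whether each compound moved the high-fat liver, and all of them share the 3 model libraries, so their values stand side by side and are not independent. Their doses differ, and no comparison between the flavonols is made. In quercetin against model liver Mt1, Mt2 and Slc39a14 were higher with ranges apart and Slc30a10 was lower, beside 15.4% and 14.2% of all genes tested in those directions. The log2 fold change was 4.55 ± 1.02 for Mt1 (23.3-fold), 5.29 ± 1.21 for Mt2 (39.1-fold), 0.67 ± 0.11 for Slc39a14 and -1.20 ± 0.12 for Slc30a10. For Slc30a1 it was 0.06 ± 0.10, with a 95% interval of -0.16 to 0.28. The metallothionein and exporter genes thus did not keep 1 direction. Without model library 1 the Mt2 value was 6.15.

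In myricetin against model liver Mt1, Mt2 and Slc39a14 were higher with ranges apart, beside 9.54% of all genes tested, and none of the 5 was lower with ranges apart, beside 9.23%. The log2 fold change was 2.76 ± 1.05 for Mt1 (6.75-fold), 3.01 ± 1.34 for Mt2 (8.08-fold) and 0.23 ± 0.11 for Slc39a14. Slc30a1 at 0.06 ± 0.10 and Slc30a10 at -0.21 ± 0.12 overlapped the model libraries. Without model library 1 the Mt2 value was 3.88, and the Slc30a1 value ran from -0.01 without myricetin library 7 to 0.17 without model library 2.

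In kaempferol against model liver Mt1 and Slc39a14 were higher with ranges apart, beside 10.2% of all genes tested, and Slc30a1 was lower, beside 8.75%. The log2 fold change was 3.03 ± 1.04 for Mt1 (8.14-fold), 4.08 ± 1.26 for Mt2 (16.9-fold), 0.28 ± 0.11 for Slc39a14, -0.21 ± 0.10 for Slc30a1 and -0.14 ± 0.12 for Slc30a10. The metallothionein difference rested largely on kaempferol library 3. Without it the values were 1.73 for Mt1 and 2.62 for Mt2, and without model library 1 the Mt2 value was 4.94.

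**Figure D4:**
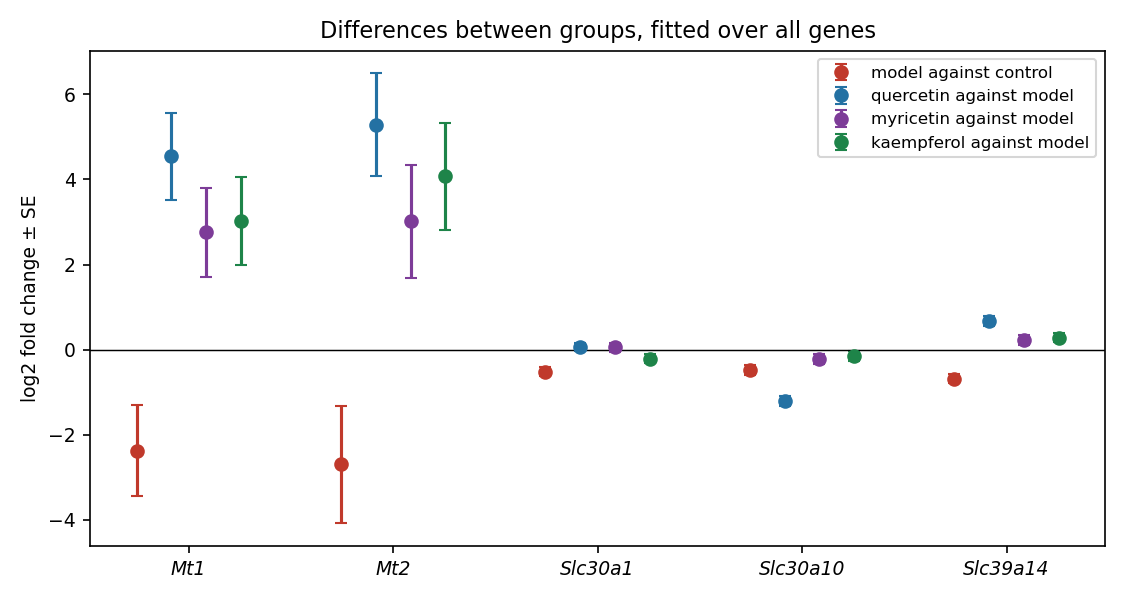
Log2 fold change ± SE (vertical bars) of the 5 genes in 4 comparisons, from 1 fit over all genes tested. The Mt1 and Mt2 points lie at -2.69 to -2.37 for the model diet and at 2.76 to 5.29 for the flavonols, while the transporters lie between -1.20 and 0.67.

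The other genes of the zinc transporter families were tested with edgeR's quasi-likelihood test, adjusted over all genes. Of 22 such genes in the table, 17 had enough reads. In model against control liver 1 fell and none rose, beside 2.27% of all genes falling and 2.2% rising. The gene that fell was Slc30a3, known as a transporter that loads zinc into vesicles, with a log2 fold change of -2.41 ± 0.59 and an edgeR adjusted p of 0.0296. It was scarce, at 0.761, 2.899 and 3.29 CPM in control and 0.367, 0.582 and 0.329 CPM in model libraries, with ranges apart. Its adjusted p rose above 0.05 without control library 2 or 3 or any 1 of the 3 model libraries, to at most 0.136. Slc39a6, another gene of the ZIP family, named here after its values were seen, had -1.13 ± 0.32 (edgeR adjusted p = 0.0547) and did not pass. It held 3.36 to 5.80 CPM in control and 1.91 to 2.50 CPM in model libraries.

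None of the 17 transporters passed in the flavonol comparisons by edgeR, while 4, 2 and 1 had an unadjusted p under 0.05 with quercetin, myricetin and kaempferol and DESeq2 called 1, 0 and 0. Over all genes edgeR called 4.06% of all genes higher and 3.76% lower with quercetin, 0.182% and 0.213% with myricetin, and 0.0158% and 0.0237% with kaempferol. DESeq2 called 981, 1268, 210 and 189 genes in all for the diet, quercetin, myricetin and kaempferol. The share of all genes at an unadjusted p under 0.05 is not given here. Counts at that threshold, for any list or marker set, thus lack a background. The median log2 fold change of the 17 was 0.02 for the model diet, 0.09 for quercetin, -0.01 for myricetin and -0.02 for kaempferol, and that of all genes lay between -0.01 and 0.01. Slc39a10, a plasma membrane zinc importer gene named here after its values were seen, had -0.82 ± 0.27 with quercetin (edgeR adjusted p = 0.0796), -0.59 ± 0.27 with myricetin and -0.54 ± 0.27 with kaempferol. These did not pass the test.

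**Figure D5:**
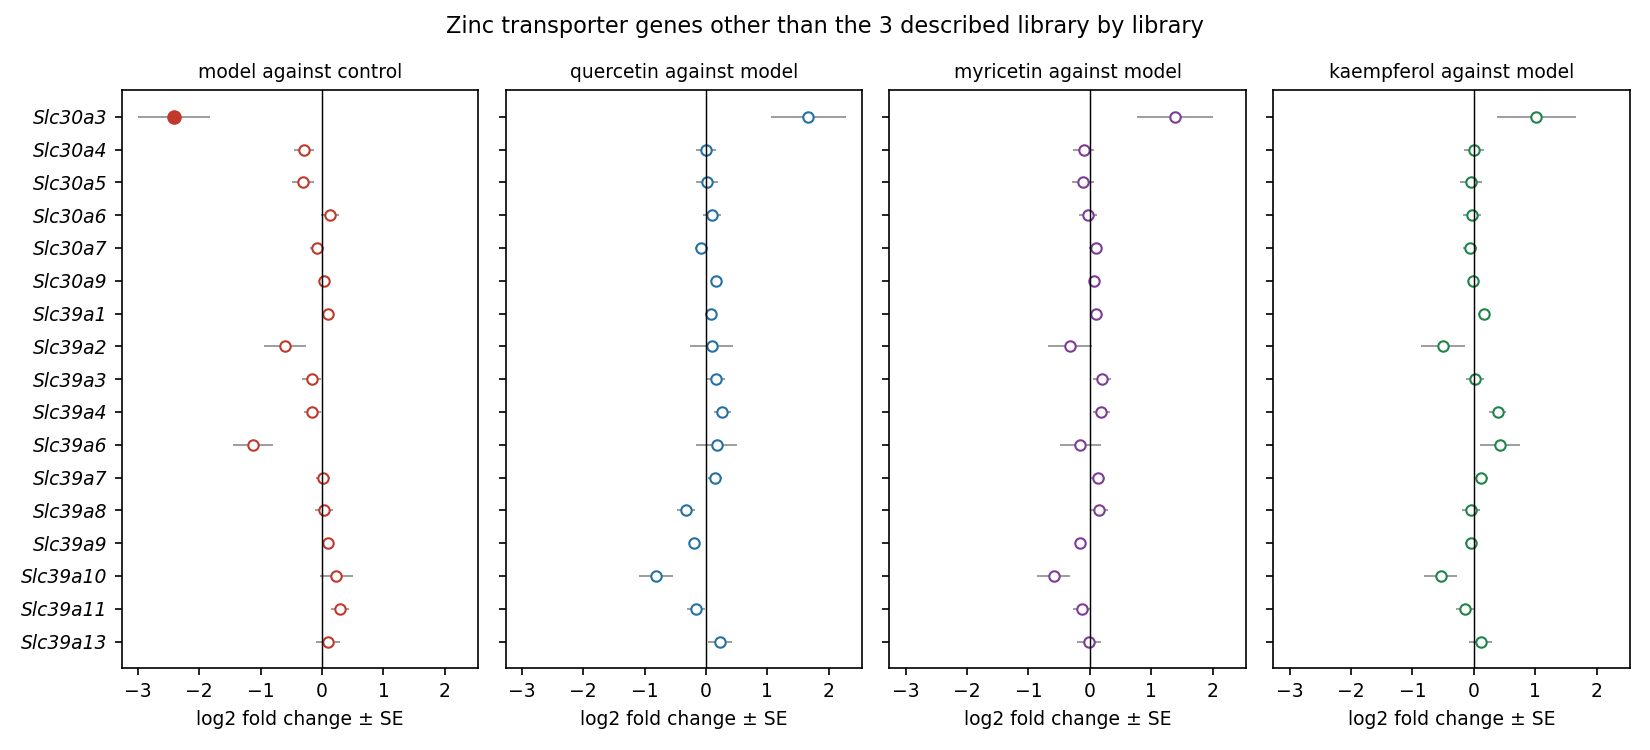
Log2 fold change ± SE (horizontal bars) of the 17 other zinc transporter genes tested, in the 4 comparisons. Filled points passed the edgeR test at an adjusted p under 0.05, and Slc30a3 in model against control liver was the single one.

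Mtf1, the gene of the zinc sensor itself, did not pass the edgeR test in any of the 4 comparisons. It ranged from 15.02 to 18.3 CPM in control, 14.9 to 17.3 in model, 13.0 to 14.6 in quercetin, 11.7 to 14.5 in myricetin and 9.30 to 14.9 CPM in kaempferol livers. Its log2 fold change was -0.05 ± 0.15 for the model diet, -0.28 ± 0.15 for quercetin, -0.36 ± 0.15 for myricetin and -0.38 ± 0.15 for kaempferol. Of the 24 genes of metal sensing, storage and other metal transport that were tested, 1 fell in model liver and 1 fell with quercetin. These were Ftl1, the ferritin light chain gene, at -0.51 ± 0.13 (edgeR adjusted p = 0.0394), and Slc11a2, the gene of the iron importer DMT1, at -0.43 ± 0.13 (edgeR adjusted p = 0.0481). Ftl1 lost its call when any 1 of the 6 control and model libraries was left out, with an adjusted p of at most 0.141. Slc11a2 lost its call without any control or model library, without quercetin library 2 or 5, without myricetin library 5 and without kaempferol library 3 or 8, with an adjusted p of at most 0.164. With myricetin and kaempferol none of the 24 passed the edgeR test, while 2 and 4 had an unadjusted p under 0.05 and DESeq2 called 0 and 1.

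Genes of pathways known to induce metallothioneins were read in the same fit. The part of these pathways in the metallothionein values was not tested. Of 18 glucocorticoid response genes, 1 rose and 2 fell in model liver, and 2 rose and 1 fell with quercetin. Zbtb16, a transcription factor gene induced by glucocorticoids, fell by 2.67 on the log2 scale in model liver (edgeR adjusted p = 0.00184) and rose by 1.29 with quercetin (edgeR adjusted p = 0.0173). It held 77.6, 122 and 83.1 CPM in control, 13.5, 16.5 and 14.4 CPM in model, and 41.0, 47.3 and 19.9 CPM in quercetin libraries. Sds, the serine dehydratase gene, rose by 2.08 with quercetin. Cdkn1a, a cell cycle inhibitor gene, fell by 1.97 in model liver and fell by 2.45 with quercetin, and the glucocorticoid receptor gene Nr3c1 rose by 0.40 in model liver. By edgeR none of the 18 passed with myricetin or kaempferol, where 2 and 4 had an unadjusted p under 0.05 and DESeq2 called 0 in each. Zbtb16 with quercetin lost its call without quercetin library 2 or 5 or any 1 model library (edgeR adjusted p at most 0.0736). Nr3c1 lost it without control library 2 or 3, any 1 model library or kaempferol library 3 (at most 0.165 by edgeR).

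Of 28 interleukin-6, STAT3 and acute phase genes, 1 rose and 1 fell in model liver, 4 rose and 1 fell with quercetin, none passed with myricetin (4 at an unadjusted p under 0.05 in edgeR, 0 by DESeq2) and 1 rose with kaempferol. Socs3, a feedback inhibitor gene of STAT3 signalling, fell by 1.22 in model liver (edgeR adjusted p = 0.0455) and rose by 2.08 with quercetin (edgeR adjusted p = 0.00164). Its quercetin libraries 2, 5 and 8 held 15.2, 12.0 and 29.9 CPM. Apcs, an acute phase gene of the same list, had r = 0.872 with Mt2 over the 15 libraries and 0.848 within groups. The part of this pathway in the metallothionein values was not tested. Junb and Cebpb, both transcription factor genes of the acute phase, rose by 0.97 and 0.96 with quercetin. Il6st, which encodes the shared receptor chain gp130, rose by 0.46 in model liver and fell by 0.47 with quercetin. Saa3, a serum amyloid gene, rose by 1.71 ± 0.26 with kaempferol (edgeR adjusted p = 0.0288). The median log2 fold change of the 28 genes was -0.24 in model liver, where 22 had a value below 0. It was 0.46 with quercetin, 0.15 with myricetin and 0.47 with kaempferol, where 21, 16 and 27 had a value above 0, beside medians of -0.01 to 0.01 over all genes tested. Leaving out single libraries ended the call of Socs3 in model liver in 11 of 15 fits, all but those without model library 2 or any 1 quercetin library. It ended that of Saa3 without any 1 model library, quercetin library 2, myricetin library 7 or 8, or kaempferol library 3. It ended that of Il6st in model liver without control library 2 or 3 or any 1 model library, and with quercetin without model library 2 or quercetin library 5 or 8. Junb lost its call without model library 1 or 2 or quercetin library 2 or 8, and Cebpb without any of 8 libraries, control 3, model 1, 2 and 5, quercetin 5 and 8, and kaempferol 3 and 8. Socs3 with quercetin kept its call in all 15 fits.

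Kaempferol libraries 3, 5 and 8 held 28.9, 27.2 and 19.2 CPM of Saa3. Saa1, another serum amyloid gene, chosen here after its values were seen, held 209.7, 200.3 and 32.9 CPM there and did not pass the test at 1.21 ± 0.83. Library 8 was the lowest of the 3 for Mt1, Mt2, Saa1 and Saa3. Other genes of the inducing lists, also chosen after their values were seen, did not keep 1 order there. Socs3 was lowest in library 8 at 7.78 CPM. Junb, Zbtb16 and Hmox1, the last of the NRF2 and glutathione list, were highest in it at 32.3, 27.6 and 82.9 CPM. Marker genes of Kupffer cells and macrophages, 12 in all and none at 0 in every library, summed to 123 to 212 CPM in control, 258 to 390 in model, 353 to 405 in quercetin, 348 to 510 in myricetin and 461 to 1019 CPM in kaempferol libraries. None of these 12 passed by edgeR with a flavonol, while 0, 1 and 10 had an unadjusted p under 0.05 with quercetin, myricetin and kaempferol and DESeq2 called 0, 0 and 3. Over all genes DESeq2 called 1268, 210 and 189 in these comparisons. Of 3 neutrophil markers tested, 2 rose with quercetin, and the 9 in the table summed to 2.73 to 5.63 CPM in model and 6.34 to 13.5 CPM in quercetin libraries. Also with quercetin, 1 of 6 B cell markers rose and 1 each of 10 endothelial, 7 cholangiocyte and 7 T and NK cell markers fell. Over all genes 4.06% rose and 3.76% fell with quercetin by edgeR. With kaempferol 5 of 6 B cell and 2 of 3 neutrophil markers had an unadjusted p under 0.05 in edgeR, and none passed. The part of these cells in the metallothionein values was not tested.

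Of 23 NRF2 and glutathione genes, 2 rose and 1 fell with quercetin. None passed by edgeR in model liver, with myricetin or with kaempferol, where 3 each had an unadjusted p under 0.05 and DESeq2 called 1, 0 and 0. Gss and Gstm1, genes of glutathione synthesis and conjugation, rose by 0.57 and 0.60, and Gclc, the gene of the catalytic subunit that limits glutathione synthesis, fell by 0.67 (edgeR adjusted p = 0.0219). Gstm1 has close paralogs, so its count is uncertain in part, and it lost its call in 11 of 15 fits that each left out 1 library, all but those without control library 1 or 3 or myricetin library 7 or 8. Gclc lost its call without model library 1 or quercetin library 2 or 5, and Gss kept its own in all 15.

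Clock genes had the most calls of these lists with quercetin. Of 19 clock genes, 7 rose and 6 fell with quercetin, 3 rose and 2 fell with myricetin, 1 fell with kaempferol and 1, Nfil3, rose in model liver. With kaempferol 9 of the 19 had an unadjusted p under 0.05 in edgeR and DESeq2 called 6. There 15 had a log2 fold change below 0 and 4 above it, at a median of -0.63. Dbp, a clock output gene, held 1.80 to 2.83 CPM in control, 2.20 to 3.03 in model, 126 to 163 in quercetin, 5.55 to 25.2 in myricetin and 1.27 to 1.99 CPM in kaempferol libraries. Its log2 fold change was 5.74 ± 0.47 with quercetin (edgeR adjusted p = 8.02e-05) and 2.65 ± 0.45 with myricetin (edgeR adjusted p = 0.0356). The myricetin call was lost without control library 2 or 3, any 1 model or kaempferol library, or myricetin library 7 or 8 (edgeR adjusted p at most 0.149). Arntl, the gene of BMAL1, fell by 3.43 with quercetin, from 28.6 ± 2.02 in model to 2.66 ± 1.17 CPM in quercetin liver (SD, n = 3). Cry1 fell by 2.83 with quercetin and fell by 1.80 with myricetin. Nfil3 in model liver lost its call without control library 2 or 3 or model library 1 or 5. By library, Dbp held 1.49, 1.27 and 1.99 CPM in kaempferol libraries 3, 5 and 8 and 141, 163 and 126 CPM in quercetin libraries 2, 5 and 8. Nr1d1, another clock gene, chosen here after its values were seen, held 17.9, 14.1 and 24.1 CPM in kaempferol libraries 3, 5 and 8. Its model libraries held 4.16 to 7.05 CPM, and it did not pass the edgeR test with kaempferol. The part of collection hour in the metallothionein and Slc30a10 values was not tested.

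Of 20 fasting and insulin genes, 3 rose and 2 fell in model liver, 1 rose and 2 fell with quercetin and 1 rose with myricetin. None passed with kaempferol by edgeR, where 7 had an unadjusted p under 0.05 and DESeq2 called 0. In model liver Irs2, Igfbp1 and G6pc, genes that insulin lowers in liver, rose by 1.98, 3.22 and 1.397, and Angptl8, a gene that insulin induces, fell by 3.38. Irs2 kept its call in all 15 fits that left out 1 library. Igfbp1 lost it without control library 2 or 3, G6pc also without model library 1 or 5, and Angptl8 without control library 2 or 3 or any 1 model library. Trib3 rose by 2.11 with quercetin and by 2.18 with myricetin, while Pdk4 and Ppp1r3c changed by -2.64 and -1.98 with quercetin, and these 4 calls held in all 15 fits. The labels give no feeding state at collection, and its part in the metallothionein values was not tested.

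Among the 5 genes, Slc39a14 went with the metallothioneins and the exporters did not. Over 15 libraries Mt1 and Slc39a14 had r = 0.739 and rho = 0.761 on log2 CPM, and r was 0.828 after group means were subtracted. For Mt1 and Slc30a10 the r was -0.557, and -0.256 within groups. For Mt1 and Slc30a1 it was 0.041. These are descriptions over libraries that share group means, depth and scaling.

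The genes most like each member were sought among 9014 genes with a mean of at least 5 CPM, by Pearson r of log2 CPM over the 15 libraries. For Mt1 these were Pir (0.866), Adora1 (0.863), Dnajc12 (0.859), Uap1l1 (0.844) and Apcs (0.837). For Mt2 they were Apcs (0.872), Adora1 (0.855), Tmem176b (0.838), Ano10 (0.834) and Pir (0.833), so that Pir, Adora1 and Apcs, the serum amyloid P component gene, stood near both. Apcs was also the first for Mt2 after group means were subtracted, at 0.848, followed by Il13ra1 (0.837) and Magi1 (0.834), while Mt1 then had Magi1 (0.826), Plce1 (0.824) and Itih4 (0.802).

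Slc39a14 was most like Mfsd2a (0.940), a lysophospholipid transporter gene, then Kng2 (0.921), Mat1a (0.905), Arhgef26 (0.886) and Apbb3 (0.881). Mfsd2a had means of 24.3 CPM in control, 0.992 in model, 21.3 in quercetin, 4.23 in myricetin and 2.26 CPM in kaempferol livers. Slc30a10 was most like Nedd4l (0.945), Slc16a6 (0.939), Synrg (0.931), Appl1 (0.925) and Cdkn1a (0.925). Slc30a1 was most like Edrf1 (0.920), Ankrd10 (0.913), Zbtb18 (0.890), Sqle (0.890) and Zbed4 (0.888), and Sqle, a cholesterol synthesis gene, had means of 47.9 CPM in control and 1.28 to 3.84 CPM in the high-fat groups. Within groups, other genes were among the nearest: Pes1 (0.872) and Hspb8 (0.856) for Slc39a14, Leo1 (0.920), Cdh1 (0.906) and Serinc5 (0.879) for Slc30a10, and Med20 (0.931), Zfp715 (0.887) and Pigm (0.859) for Slc30a1. By Spearman rho, 3 of the 5 genes named first were also in the leading 5 for each member.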

How the data were processed

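Liver RNA was sequenced in 15 libraries of 5 groups of 3. The submitters' processing notes name the build GRCm38.p6 and 4 tools whose roles are not given in the sources used here: RSEM 1.3.1, HISAT2 2.1.0, DESeq2 1.4.5 and Bowtie2 2.3.4.3. The deposited table gives, per the file headers, an expected count and a TPM per gene and library, and 5.37% of the expected counts were not whole. Strand is not given in the sources used here, so reads of overlapping genes may mix. No 2 libraries were identical.

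The expected counts were rounded, and filterByExpr (minimum count 10, minimum total 15) kept 12658 genes. After TMM scaling, edgeR 4.0.16 (R 4.3.3) fitted a robust quasi-likelihood model to the 15 libraries together, leaving 10 residual degrees of freedom. Tests were 2-sided, with Benjamini-Hochberg adjustment over all genes tested. Standard errors were derived from the F statistic and are approximate, as are intervals. The fit was tested on simulated data. CPM use TMM-scaled totals. Alternatives were other scalings and filters, DESeq2 1.42.0, the 2 groups alone, a replicate block, each library left out, and deposited TPM.

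The members and gene lists were chosen with earlier results of these data known. The rule for named genes took all members, Mtf1, Dbp, Arntl, passing genes of the metal lists, and up to 3 passing genes per direction of the other lists by smallest p. It also took the 5 genes most like each member by Pearson r, and 3 after subtracting group means. The same-numbered libraries of different groups did not deviate together. Groups of 3 limit the precision of every value. Some genes of the lists are counted but not reported by name here.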

Additional observations from a re-analysis of the deposited data

How the results depend on the processing

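Each member difference was recomputed under 23 alternatives (22 for Mt2 with kaempferol, which the filter removed when only the 2 groups were fitted), and the sign was the same in all of them except for Slc30a1 with myricetin, where 22 of 23 kept it. Most values moved by less than the spread between libraries. With kaempferol, leaving out single libraries gave 1.73 to 3.49 for Mt1 and 2.62 to 4.94 for Mt2, and log2(TPM + 1) gave 2.65 for Mt2. For Slc30a1 in model against control liver the values without 1 library ran from -0.65 to -0.46. From TPM with a pseudocount of 0.1 or 1, the quercetin values were 0.26 and 0.24 for Slc30a1, -1.002 and -0.92 for Slc30a10, and 0.90 and 0.88 for Slc39a14. These lay above the 0.06, -1.20 and 0.67 of the main fit for all 3 transporters, and TPM carry no TMM factors. TPM of genes with few reads and a pseudocount of 1 understate a difference by construction.

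Title numbers are shared across groups, but same-numbered libraries did not deviate together: the 14 same-numbered pairs had correlations of -0.238 to 0.0978 and the 76 others -0.246 to 0.300. A replicate block by number gave 6.56 for Mt2 with quercetin, 4.90 for Mt1, 5.62 for Mt2 and 0.44 for Slc39a14 with myricetin. With the replicate block all genes called numbered 43, 236, 5 and 1 for the diet, quercetin, myricetin and kaempferol, beside 565, 990, 50 and 5 without it. The replicate block left 0 zinc transporters and 0 other metal genes in model liver, 0 other metal genes with quercetin, and 4, 2 and 0 genes of the glucocorticoid, acute phase, NRF2, clock and fasting lists together for the diet, myricetin and kaempferol, beside 11, 6 and 2.

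For the zinc transporters in model against control liver, 1 passed, DESeq2 and the 2 groups alone gave 2 each, and leaving out 1 library gave 0 to 2. With quercetin none passed, DESeq2 and the 2 groups alone gave 1 each, and leaving out 1 library gave 0 to 1. For the other metal genes in model against control liver, 1 passed, upper-quartile scaling gave 0, and leaving out 1 library gave 0 to 1. With quercetin 1 passed, DESeq2 gave 2, the 2 groups alone and a fit that was not robust gave 0 each, and leaving out 1 library gave 0 to 1. With kaempferol DESeq2 gave 1 where edgeR gave 0. For the genes of those 5 lists together in model against control liver, 11 passed, 6 of them of the clock and fasting lists, DESeq2 gave 21, the 2 groups alone and a fit that was not robust gave 17 each, and leaving out 1 library gave 3 to 14. With myricetin 6 passed, all of the clock and fasting lists, and DESeq2 gave 10. With kaempferol 2 passed, DESeq2 gave 10, the 2 groups alone gave 4, and leaving out 1 library gave 0 to 6. The causes were not tested. The list counts stand beside all-gene totals that also moved with the setting. For the diet, quercetin, myricetin and kaempferol the main fit called 565, 990, 50 and 5 genes. DESeq2 called 981, 1268, 210 and 189, the 2 groups alone 818, 885, 125 and 21, and the fit that was not robust 604, 1022, 48 and 6. Over all genes, leaving out 1 library gave 82 to 919 calls for the diet, 429 to 1121 for quercetin, 13 to 67 for myricetin and 0 to 39 for kaempferol. Of the 49 calls of list genes, 27 held in every fit that left out 1 library, and 23 held with the replicate block. In the fits to counts, scaling moved the median of all genes by less than 0.1, and TPM were not included there.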
